A study of Homo sapiens with 4 samples.

Results

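The 10 genes described here encode the main proteins of the nuclear lamina and of the inner nuclear membrane in human cells. They were chosen by name and are LMNA, LMNB1 and LMNB2 for the lamins, LBR, TMPO, EMD and LEMD3 for inner membrane and LEM-domain proteins, SUN1 and SUN2 for the SUN proteins, and BANF1 for the chromatin-binding factor BAF. All 10 were found among the 15219 genes of the table, and all 10 passed the filter on low counts.

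RNA had been sequenced from 2 libraries of PANC-1, a human pancreatic ductal adenocarcinoma cell line that received no virus, and 2 libraries of PZT-2, a clone of PANC-1 in which 3 isoforms of the histone variant H2A.Z were knocked down. PZT-2 is 1 clone. It carries lentiviral short hairpin RNAs, driven by the U6 promoter of a plasmid with puromycin resistance, 1 against H2A.Z.1 and 1 against both H2A.Z.2 isoforms. Both lines were grown in DMEM with serum and used at like passages, and cells with a scrambled hairpin are not analysed here, so that knockdown, viral transduction, drug selection and the picking of a clone cannot be told apart. The study calls the libraries of a line biological replicates, but the labels do not say what was replicated, so the p values measure the spread between these libraries.

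The lamina is a meshwork of A-type lamins (lamin A and lamin C, both from LMNA) and B-type lamins (from LMNB1 and LMNB2) under the inner nuclear membrane. Proteins of that membrane tie the lamina to chromatin, in part through a LEM domain that binds BAF, while SUN proteins reach across the envelope to nesprins and so to the cytoskeleton. Loss of LMNB1 is widely used as a mark of senescent cells, and the study examined senescence in the knockdown clone, so the question for this set of genes was whether LMNB1 and its partners differed between the lines.

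LMNA and TMPO each make several proteins, and the 2 main products of TMPO are shown here because their shares are compared further on. The 30 bases given for each are the last 15 coding bases that LAP2 alpha and LAP2 beta share, in lower case, and the first 15 of each product's own part, in capitals, written 5′ to 3′ from GENCODE 29 on GRCh38. The shared part ends at position 98531838 of chromosome 12 (plus strand), and the products continue in different exons. The coding sequences give 694 residues for LAP2 alpha and 454 for LAP2 beta.
LAP2 alpha: gtgacaatgaagaagGAAAGAAGAAAGAAC
LAP2 beta: gtgacaatgaagaagACTCTAAAATAGAGC

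The libraries held 12861181 to 15717297 counts. The targets of the hairpins were lower in the clone: H2AFZ, which encodes H2A.Z.1, went from 6212 ± 252 to 2235 ± 32.6 normalized counts (SD, n = 2; log2 fold change -1.47 ± 0.06 SE, edgeR adjusted p = 5.96e-05), and H2AFV, which encodes the H2A.Z.2 isoforms, from 3398 ± 76.8 to 2654 ± 90.8 (-0.36 ± 0.06 SE, edgeR adjusted p = 0.00562). Of the markers checked, all 6 ductal epithelial genes and all 3 mesenchymal genes were listed, while none of the 3 acinar and none of the 3 islet genes was. The marker counts given here are not normalized for library size. VIM, KRT8, KRT18 and KRT19 were at the top. KRT7, at 103 to 127 counts, EPCAM, at 83 to 116, and FN1, at 3 to 17, were low. The sum of ductal counts therefore rests on KRT8, KRT18 and KRT19. The summed ductal counts were 77063 to 94833 in PANC-1 and 44867 to 44870 in PZT-2, and CDH1, at 103 and 164 counts in PANC-1, had 0 and 19 in PZT-2. In edgeR's test 4 of the 6 ductal genes and 2 of the 3 mesenchymal genes were lower in PZT-2, the latter being CDH2 (log2 fold change -1.84 ± 0.11 SE) and VIM (-0.48 ± 0.03 SE), and none was higher. Of all genes, 13.8% were called lower and 14.9% higher. Of markers of other cells, 1 of 4 fibroblast genes (COL1A1), 1 of 3 immune genes (CD68) and 1 of 3 endothelial genes (PECAM1) were listed. COL1A1 had 439 and 588 counts in PANC-1 and 169 and 137 in PZT-2, and was called lower (log2 fold change -1.75 ± 0.13 SE). CD68 had 1495 to 1746 counts and PECAM1 4 to 11, and neither was called. The part of these marker changes in the results for the 10 genes was not tested.

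Per unit of transcript length, LMNA was the most and LEMD3 the least abundant of the 10 genes in both lines. In PANC-1 the mean abundance was 1140 ± 14.4 on the TPM scale (SD, n = 2), which corrects counts for transcript length, for LMNA, 614 ± 16.5 for BANF1 and 399 ± 29.8 for EMD. LMNB2 followed at 197 ± 3.54 TPM, then SUN1 at 106 ± 1.94, LMNB1 at 89.5 ± 6.43 and TMPO at 82.5 ± 6.30. SUN2 at 49.2 ± 0.0763, LBR at 30.2 ± 3.27 and LEMD3 at 10.6 ± 1.02 TPM came last. Neighbours in this order did not overlap between libraries except LMNB1 and TMPO. The order of the 10 genes was the same in PZT-2, where no neighbours overlapped, and SUN1 at 166 ± 2.04 TPM came close to LMNB2 at 177 ± 1.49.

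**Figure D1:**
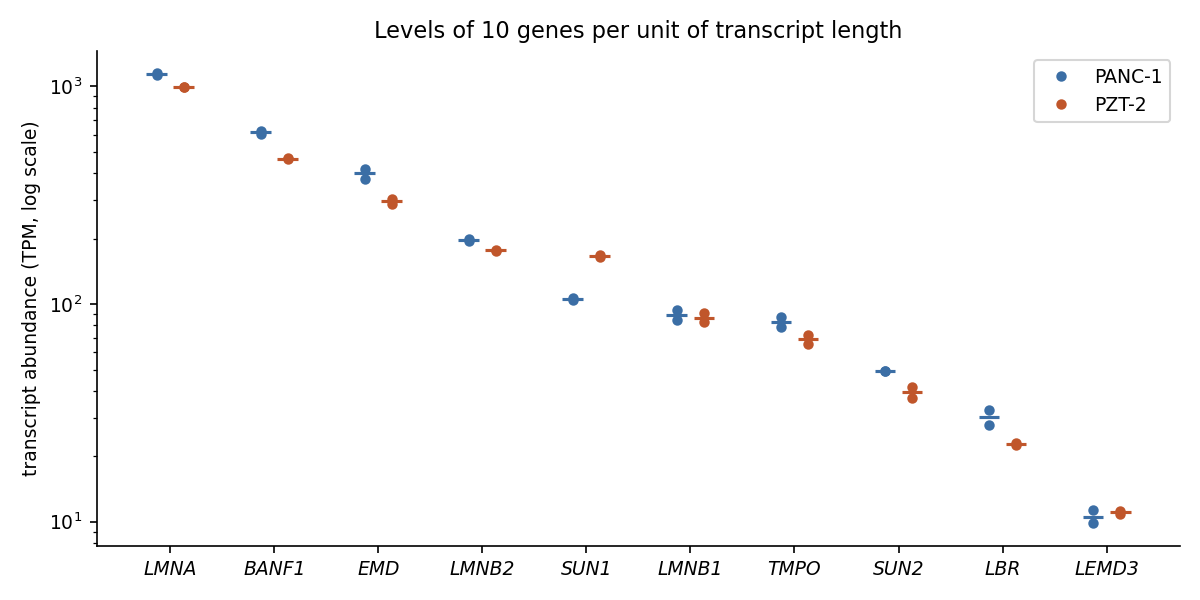
Transcript abundance of the 10 genes in TPM on a log axis, ordered by the PANC-1 mean, with 1 point for each library and a line at the mean of each cell line. The genes run from LMNA at 1140 TPM to LEMD3 at 10.6 TPM in PANC-1, and SUN1 is the called gene that lies higher in PZT-2.

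Of the 10 genes, 5 were lower in PZT-2 (LMNA, LBR, EMD, SUN2 and BANF1), 1 was higher (SUN1) and 4 did not pass the test (LMNB1, LMNB2, TMPO and LEMD3) at an adjusted p of 0.05 in edgeR's quasi-likelihood test over 14986 genes. This count of 6 stands beside 28.7% of all genes called, of which 13.8% of all genes were lower and 14.9% higher. That share covers genes down to 5 counts in 2 libraries, while PANC-1 means of the 10 ran from 398 (LEMD3) to 20761 (LMNA) normalized counts. With at least 10 counts in all 4 libraries, 7 of the 10 were called, beside 4563 of 12660 genes. The libraries of the lines did not overlap for 8 of the 10, against 66.5% of all genes. The median log2 fold change was -0.20 over the 10 genes and 0.00083 over all genes. No change reached 1 on the log2 scale: the values ran from -0.42 for EMD to 0.66 for SUN1. Fewer cells of a kind and less RNA per cell cannot be told apart in such bulk libraries.

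**Figure D2:**
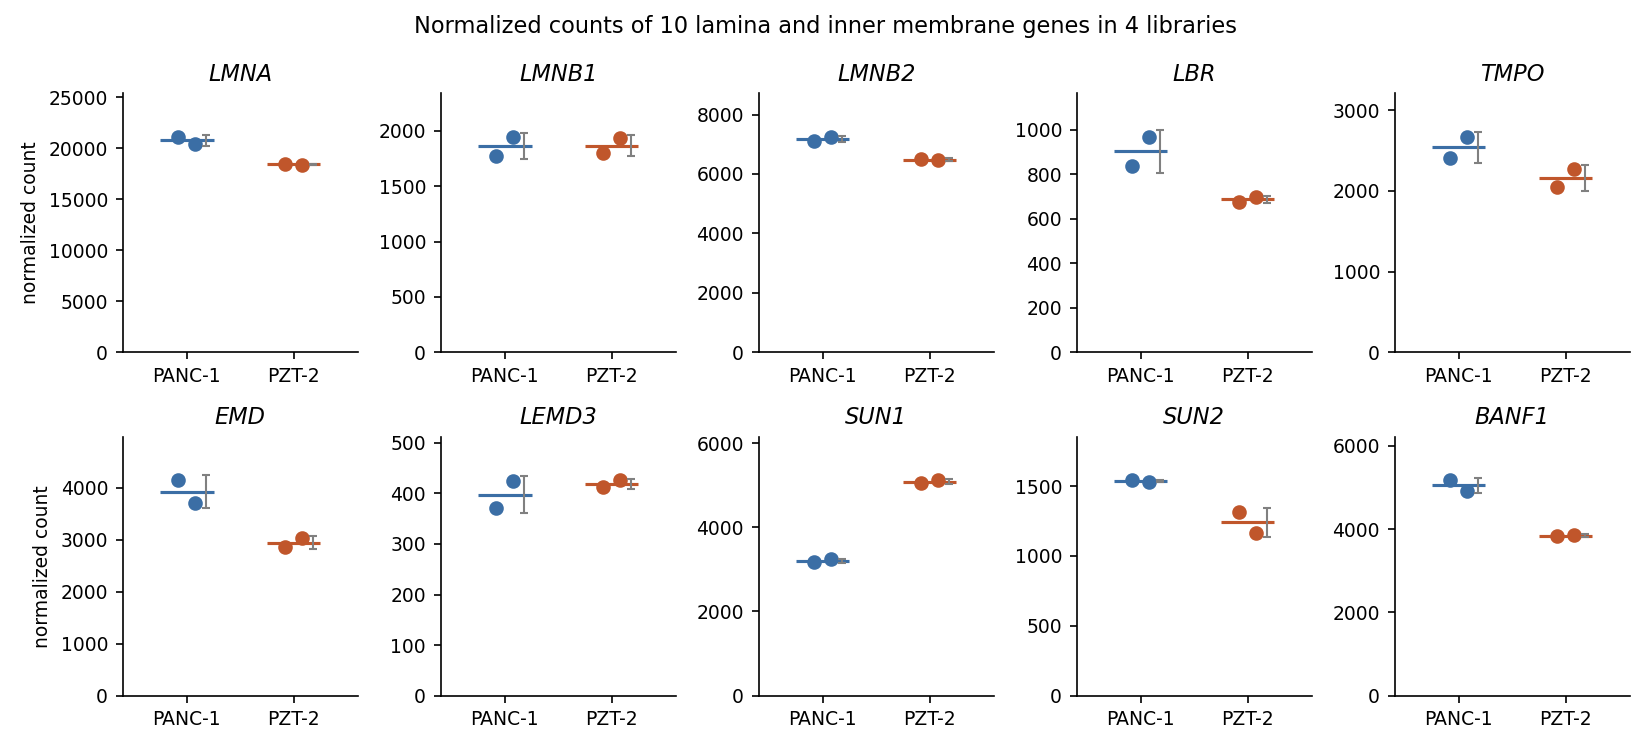
Normalized counts of each gene in the 4 libraries (points), with the mean of each line (bar) and the SD (grey), every axis starting at 0. SUN1 lies at 3176 and 3241 in PANC-1 and at 5047 and 5120 in PZT-2, while the LMNB1 points of the lines cover the same range.

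LMNB1 RNA lay at nearly the same level in both lines. The gene encodes lamin B1, whose protein level these libraries do not give. It lies on chromosome 5 from 126776623 to 126837020 on the plus strand of GRCh38. Its normalized counts were 1778 and 1949 in PANC-1 and 1798 and 1932 in PZT-2, so the libraries of the lines overlapped and the means, 1864 ± 121 and 1865 ± 95.1 (SD, n = 2), were nearly equal. The log2 fold change was 0.00013 ± 0.07 (SE), with an edgeR adjusted p of 1.00 and a 95% interval from -11.4% to 12.8% of the PANC-1 level. A change below -11.4% therefore lies outside the interval at this depth and spread. Under 16 alternative ways of processing, none of which called the gene, the log2 fold change ran from -0.07 to 0.15.

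LMNB2 and LMNA were slightly lower in PZT-2, and only LMNA passed the test. LMNB2, the gene of lamin B2, lies on chromosome 19 from 2427638 to 2456996 (minus strand). Its counts of 7109 and 7259 in PANC-1 and 6518 and 6458 in PZT-2 did not overlap, and the change of -9.69% (95% interval -16.5% to -2.37%) had an edgeR adjusted p of 0.0588. LMNA, on chromosome 1 from 156082573 to 156140089 (plus strand), had 21139 and 20383 counts in PANC-1 and 18479 and 18375 in PZT-2. It fell by 11.2% (interval -17.2% to -4.83%; edgeR adjusted p = 0.0247), a change larger than that of 33.0% of all genes. Without PZT-2 replicate 1 the log2 fold change of LMNA was -0.18 ± 0.07 (SE) and without PZT-2 replicate 2 it was -0.17 ± 0.07, against -0.17 ± 0.04 with all libraries, and the call was lost (edgeR adjusted p = 0.146 and 0.176).

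Within each library, the 3 lamin genes together gave 79.9% ± 0.761 of their abundance to LMNA, 13.8% ± 0.291 to LMNB2 and 6.27% ± 0.470 to LMNB1 in PANC-1 (SD, n = 2). In PZT-2 the values were 79.1% ± 0.325, 14.04% ± 0.126 and 6.88% ± 0.450. The ratio of LMNA to LMNB1 was 13.5 and 12.0 in PANC-1 and 12.1 and 10.9 in PZT-2, so that PANC-1 replicate 2 lay below PZT-2 replicate 1.

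Within LMNA, lamin C made up most of the counts in every library. Lamin C (NM_005572) took 60.1% and 62.9% of the counts of the gene in PANC-1 and 59.1% and 59.8% in PZT-2, and lamin A (NM_170707) took 39.4% and 35.9% against 39.5% and 39.0%. Lamin C had 12690 and 12883 normalized counts in PANC-1 and 10892 and 10955 in PZT-2 (log2 fold change -0.23 ± 0.04 SE). Lamin A had 8323 and 7348 in PANC-1 and 7281 and 7150 in PZT-2 (-0.12 ± 0.08 SE). The difference between the transcripts was not tested. Counts of single transcripts, here and below, are kallisto estimates that divide reads shared by transcripts of a gene. The error of that division did not enter the tests.

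The 2 LMNB1 transcripts had estimates of opposite sign, and neither passed the test. NM_005573 held 50.9% and 50.0% of the counts of LMNB1 in PANC-1 and 58.9% and 53.5% in PZT-2, with a log2 fold change of 0.15 ± 0.07 (SE). NM_001198557 held the remainder, with -0.18 ± 0.13 (SE), and its libraries overlapped between the lines. The transcript with more counts, NM_005573, taken alone gave LMNB1 a log2 fold change of 0.15, the upper end of the alternatives. That choice was made on counts without correction for length: NM_005573 has 3420 bases and NM_001198557 has 2267.

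Of the inner membrane and LEM-domain genes, EMD and LBR were called lower in PZT-2. EMD encodes emerin, a LEM-domain protein whose loss causes a form of muscular dystrophy, and lies on chromosome X from 154379197 to 154381523 (plus strand). It had 4149 and 3701 counts in PANC-1 and 2853 and 3031 in PZT-2, with no overlap, and fell by 25.02% (interval -33.6% to -15.4%; edgeR adjusted p = 0.00783). LBR, the lamin B receptor, binds B-type lamins and heterochromatin and also acts as a sterol reductase, and lies on chromosome 1 from 225401502 to 225428925 (minus strand). It had 835 and 969 counts in PANC-1 and 676 and 696 in PZT-2, and fell by 24.0% (interval -34.6% to -11.8%; edgeR adjusted p = 0.0192). Both genes are single transcripts in the table. Without PZT-2 replicate 1 both calls were lost, with log2 fold changes of -0.37 for EMD (edgeR adjusted p = 0.0545) and -0.38 for LBR (0.0852), against -0.42 and -0.40 with all libraries. Without PZT-2 replicate 2, LBR had -0.42 (0.0773) and was not called.

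TMPO, which encodes the lamina-associated polypeptides LAP2, and LEMD3, which encodes the LEM protein MAN1, did not pass the test. TMPO lies on chromosome 12 from 98515512 to 98550379 (plus strand) and had 2406 and 2675 counts in PANC-1 and 2044 and 2270 in PZT-2, which did not overlap. Its change was -15.1% (interval -25.7% to -2.99%) with an edgeR adjusted p of 0.0707, and it passed the threshold in 3 of 16 alternatives, among them the fit without PANC-1 replicate 1, at 0.00496. LEMD3, on chromosome 12 from 65169571 to 65248327 (plus strand), had 371 and 424 counts in PANC-1 and 412 and 426 in PZT-2, which overlapped (change 5.13%, interval -10.7% to 23.7%; edgeR adjusted p = 0.632). Its main transcript, NM_014319, held 90.3% ± 5.31 of the counts in PANC-1 and 93.6% ± 9.10 in PZT-2 (SD, n = 2). The other, NM_001167614, held 12.9% in PZT-2 replicate 1 and 7.83e-06% in PZT-2 replicate 2.

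LAP2 alpha held a smaller share of TMPO in both PZT-2 libraries. LAP2 alpha (NM_003276), the soluble nucleoplasmic product that binds A-type lamins, made up 44.2% and 42.0% of the counts of TMPO in PANC-1 and 35.9% and 36.7% in PZT-2. LAP2 beta (NM_001032283), the membrane-bound product that binds B-type lamins, made up 52.7% and 54.5% in PANC-1 and 59.5% and 58.9% in PZT-2. LAP2 alpha had 1063 and 1130 normalized counts in PANC-1 and 732 and 831 in PZT-2 (log2 fold change -0.49 ± 0.09 SE), and LAP2 beta had 1266 and 1466 against 1215 and 1332 (-0.10 ± 0.10 SE). The LAP2 alpha libraries did not overlap between the lines and the LAP2 beta libraries did. The difference of -6.83 percentage points in the share of LAP2 alpha is given as a description and was not tested.

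**Figure D3:**
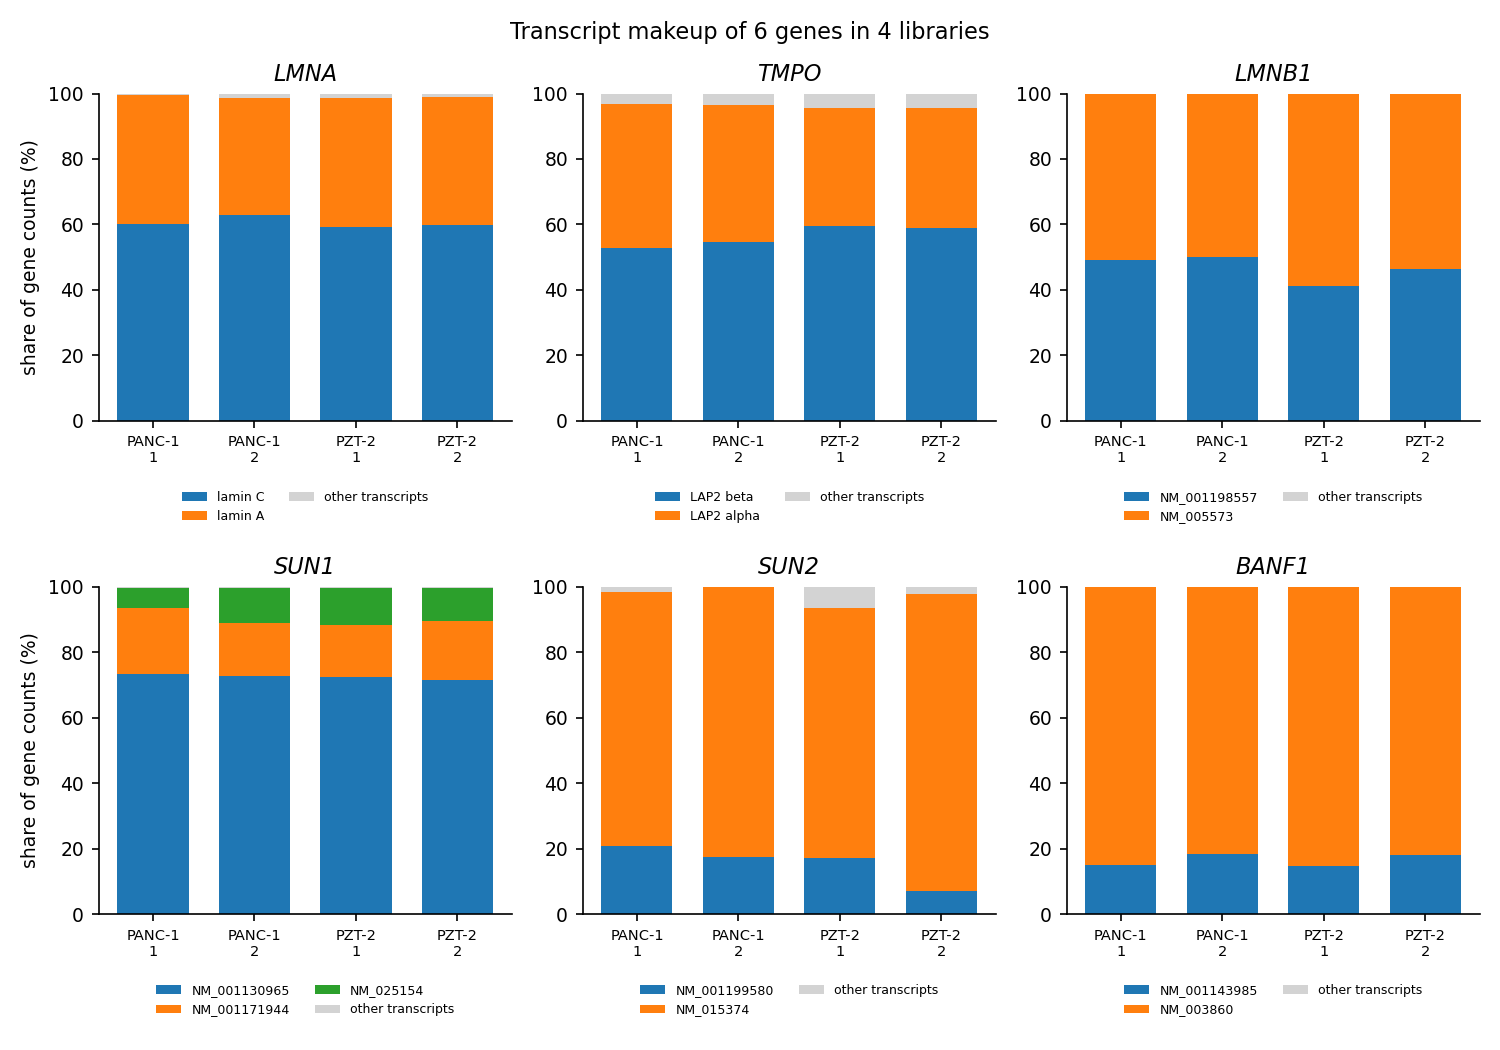
Share of the counts of each gene (%) that each transcript holds, with 1 stacked bar for each library, for the 6 genes with more than 1 transcript of at least 5% other than LEMD3. In TMPO the LAP2 alpha share is 42.0% to 44.2% in PANC-1 and 35.9% to 36.7% in PZT-2, while in SUN1 the makeup is alike in both lines.

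The SUN genes changed in opposite directions. SUN1 lies on chromosome 7 from 816615 to 896435 (plus strand) and had 3176 and 3241 counts in PANC-1 and 5047 and 5120 in PZT-2, far beyond the spread between libraries. It rose by 58.4% (interval 45.6% to 72.4%; log2 fold change 0.66 ± 0.05 SE, edgeR adjusted p = 0.000501), a change larger in size than that of 81.8% of all genes, and passed the test in all 16 alternatives, at 0.64 to 0.67. SUN2, on chromosome 22 from 38734725 to 38794143 (minus strand), had 1543 and 1531 counts in PANC-1 and 1314 and 1167 in PZT-2. It fell by 19.3% (interval -28.7% to -8.67%; edgeR adjusted p = 0.0236), and without PZT-2 replicate 2 its log2 fold change was -0.23 and not called (0.168), against -0.31 with all libraries.

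SUN1 was the more abundant of the SUN genes in every library. The ratio of SUN1 to SUN2 abundance was 2.12 and 2.18 in PANC-1 and 3.95 and 4.54 in PZT-2, means of 2.15 ± 0.0428 and 4.25 ± 0.413 (SD, n = 2). All 3 SUN1 transcripts with at least 5% of its counts lay higher in both PZT-2 libraries than in both of PANC-1, with NM_001130965 at 2329 and 2376 against 3654 and 3648 normalized counts (log2 fold change 0.63 ± 0.04 SE). That transcript held 73.2% ± 0.337 of the counts in PANC-1 and 72.0% ± 0.763 in PZT-2 (SD, n = 2). The smaller ones had log2 fold changes of 0.58 ± 0.15 (NM_001171944) and 0.96 ± 0.31 (NM_025154, SE). In SUN2, NM_015374 held 80.0% ± 3.45 of the counts in PANC-1 and 83.7% ± 10.2 in PZT-2, and NM_001199580 held 19.2% ± 2.33 and 12.0% ± 7.04. These SUN2 transcripts are 4007 and 4006 bases long. The share of NM_001199580 was 17.0% in PZT-2 replicate 1 and 7.05% in PZT-2 replicate 2.

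BANF1, the gene of BAF, a small protein that bridges DNA and LEM-domain proteins as the envelope reforms after mitosis, was lower in PZT-2. It lies on chromosome 11 from 66002079 to 66004149 (plus strand). Its counts were 5175 and 4925 in PANC-1 and 3824 and 3864 in PZT-2, with no overlap. It fell by 23.9% (interval -30.3% to -16.8%; log2 fold change -0.39 ± 0.05 SE, edgeR adjusted p = 0.00312) and passed the test in all 16 alternatives, at -0.44 to -0.36. Its main transcript, NM_003860, held 83.4% ± 2.31 of the counts in PANC-1 and 83.6% ± 2.23 in PZT-2 (SD, n = 2), and both of its transcripts lay lower in both PZT-2 libraries. GENCODE 29 lists 5 pseudogenes of BANF1 and 2 of TMPO, none of them in the table, so reads shared with such copies cannot be told apart from those of the genes.

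**Figure D4:**
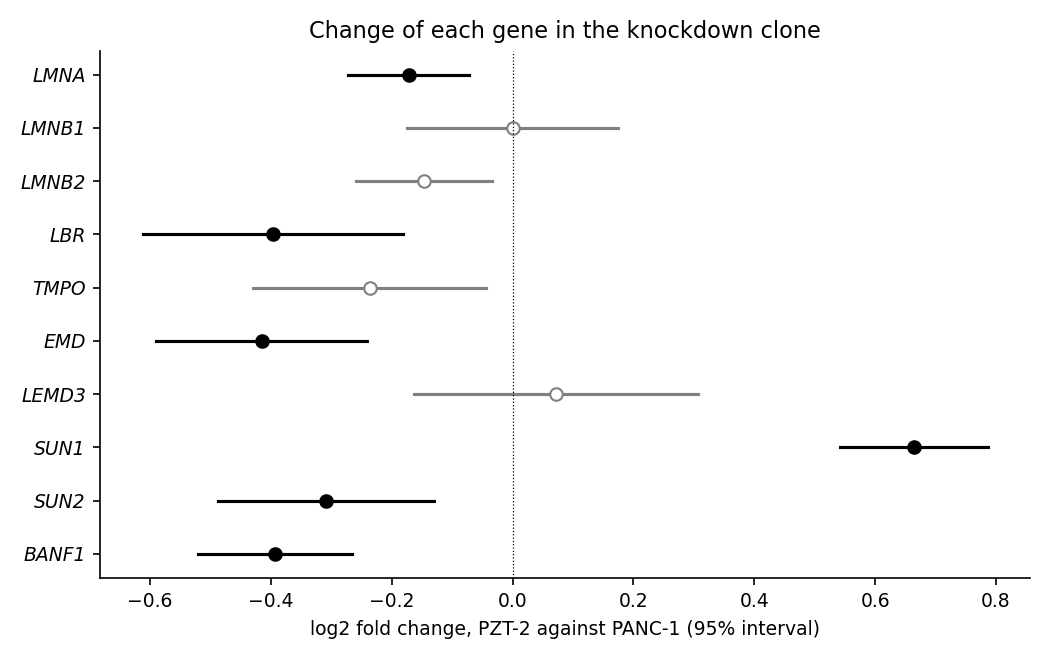
log2 fold change of each gene in PZT-2 against PANC-1 with its 95% interval from edgeR, filled where the adjusted p is under 0.05. The SUN1 interval lies wholly above 0.5, the LMNB1 and LEMD3 intervals span 0, and the other genes lie below 0.

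Taken by transcript, none of the 27 transcripts of these genes passed edgeR's test over 30263 transcripts, in which 0.149% of all transcripts were called. At an unadjusted p of 0.05, 12 of the 27 passed, beside 18.5% of all transcripts, and the Wald test of DESeq2 called 11, beside 14.4% of all transcripts. The lowest adjusted p was 0.0601, for SUN1 NM_001130965, which fell to 0.0397 with the version 4 dispersion estimate of edgeR, where 1.17% of all transcripts were called. It was also the 1 transcript of the 27 that limma-trend on log2(TPM + 1) called, beside 0.753% of all transcripts, and with at least 10 counts in all 4 libraries it was called together with BANF1 NM_003860, 2 of 20, beside 5.91% of all transcripts. DESeq2 gave LAP2 alpha an adjusted p of 0.000289 and LAP2 beta 0.788, and lamin C 1.63e-10 and lamin A 0.410. In edgeR's test the adjusted p was 0.117 for LAP2 alpha, 0.750 for LAP2 beta, 0.103 for lamin C and 0.562 for lamin A. Whether transcripts of a gene differ in their change was not tested.

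Some genes lie beside others that changed. EMD stands among 20 tested neighbours (10 on each side) of which 13 were called lower and 1 higher, with a median log2 fold change of -0.52, and the 467 tested genes of chromosome X had a median of -0.29. LMNB1 had 6 neighbours called lower and none higher (median -0.25), against its own value near 0. SUN1 had 15 tested neighbours, 3 called lower and none higher, with a median of -0.11 and values from -3.25 to 0.63. SUN2 had 11 called higher and 1 lower (median 0.45). The part of chromosomal position in these results was not tested. Genes of the table that overlap a member on the same strand were GET4 with SUN1 (log2 fold change -0.02), TIMM13 with LMNB2 (-0.55) and DNAL4 with SUN2 (0.63). Those on the other strand were TMPO-AS1 with TMPO (-0.25), GTPBP1 with SUN2 (0.43) and EIF1AD with BANF1 (0.07). Whether the authors' quantification used strand is not given in the sources used here.

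Of 49 other envelope genes listed from general knowledge, 44 were tested, and 8 were lower, 5 higher and 31 not called, or 29.5% called beside the 28.7% of all genes, with a median log2 fold change of -0.04. Among 12 LEM-domain and inner membrane genes, 3 rose and 3 fell. TMEM43, a partner of emerin and the lamins, rose from 1788 ± 7.96 to 2717 ± 122 normalized counts (log2 fold change 0.60 ± 0.06 SE, edgeR adjusted p = 0.00113), LEMD2, a LEM-domain protein, from 2175 ± 74.6 to 2860 ± 55.8 (0.40 ± 0.06 SE, 0.00412) and SPAG4, a SUN-domain protein, from 71.9 ± 9.69 to 137 ± 20.1 (0.93 ± 0.19 SE, 0.0123). NRM, the gene of nurim, fell from 430 ± 14.4 to 285 ± 6.41 (-0.59 ± 0.09 SE, 0.00452).

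The genes that seal and reassemble the envelope gave 3 lower and 1 higher of 12, or 33.3% called beside 28.7% of all genes. LPIN1, a phosphatidate phosphatase of membrane lipid synthesis, fell from 963 ± 49.0 to 545 ± 38.3 normalized counts (log2 fold change -0.82 ± 0.08 SE, edgeR adjusted p = 0.00115), and CTDNEP1, a phosphatase that acts on lipins, had -0.41 ± 0.05 (0.00296). CHMP2A, a subunit of the ESCRT-III complex that closes holes in the new envelope, had -0.55 ± 0.08 (0.00443), and SPAST, a microtubule-severing enzyme that works with it, had 0.48 ± 0.08 (0.00707).

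Of 5 lamin processing enzymes, only ZMPSTE24, the protease that matures prelamin A, passed the test, falling from 1193 ± 65.2 to 826 ± 27.3 normalized counts (log2 fold change -0.53 ± 0.07 SE, edgeR adjusted p = 0.00307). Of 7 chromatin partners, only CBX5, the heterochromatin protein HP1 alpha that LBR binds, did so (3519 ± 280 to 2286 ± 185; -0.62 ± 0.08 SE, 0.00297). Of 4 torsins 1 was called higher, and of 4 nesprins edgeR called none, with 0 at an unadjusted p of 0.05 and 0 by DESeq2. In 12 proliferation genes, 4 were lower (CCNB1, TOP2A, CCNB2 and MCM5) and 1 higher (MCM2), with a median of -0.18. This is 41.7% called, beside 28.7% of all genes. LMNB1, LBR and TMPO are known to vary with the cell cycle, and the part of proliferation in their values was not tested.

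**Figure D5:**
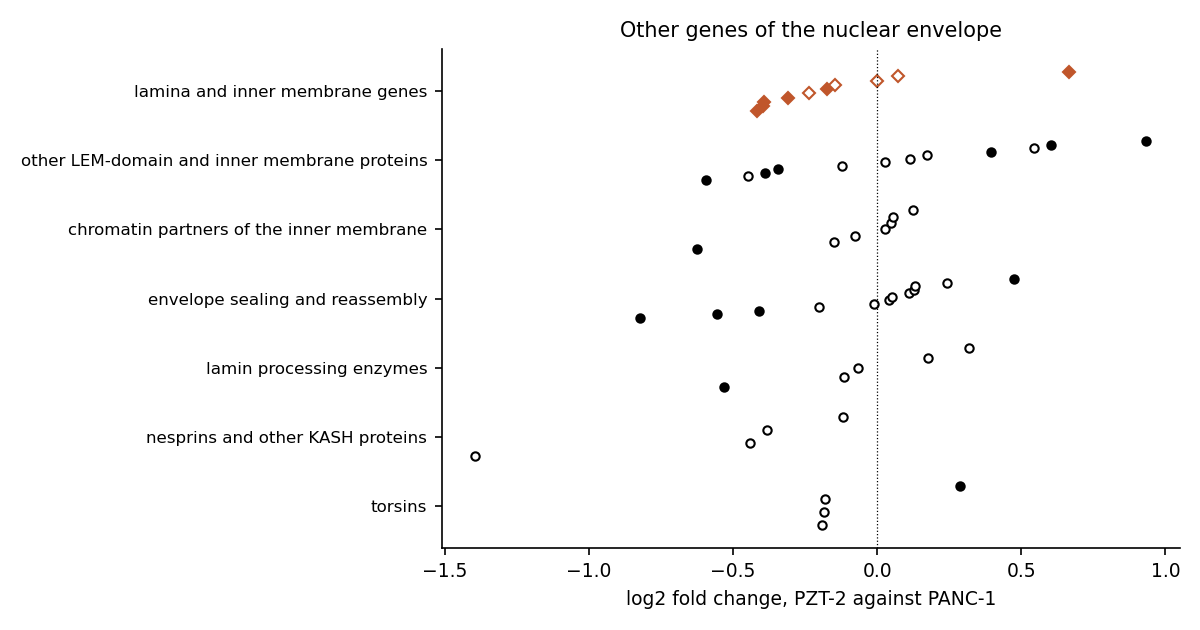
log2 fold change of the 10 genes (diamonds) and of 44 other envelope genes by group (circles), filled where the edgeR adjusted p is under 0.05. The groups spread to both sides of 0, and the lowest point, SYNE1 at -1.39, is not called.

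Fewer genes were called when either PZT-2 library was left out, where the spread is taken from the PANC-1 pair alone. The log2 fold change of LMNA was then -0.18 and -0.17, against -0.17 with all libraries, while its SE was 0.07 against 0.04. SUN2 moved more, to -0.40 and -0.23 against -0.31. Without PZT-2 replicate 1 or without PZT-2 replicate 2, 3 of the 10 genes passed the test, namely BANF1 and SUN1 with SUN2 in the former case and EMD in the latter, beside 2526 and 2089 of all genes against 4301.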

How the data were processed

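The series holds RNA-seq of 2 PANC-1 and 2 PZT-2 libraries, from polyadenylated RNA in a stranded kit. Per the labels, Trim Galore 0.4.1 was used for trimming, kallisto 0.43.0 for quantifying RefSeq transcripts and sleuth 0.29.0 for the comparison by the authors. The notes name hg19, and the release of the index is not given in the sources used here. The deposited estimated counts carry 1 factor per library (1.16 and 0.935 for PANC-1, 1.03 and 1.01 for PZT-2), which was undone, after which 43.0% to 43.6% of low values of single-transcript genes were whole to within 0.01, against 0.812% to 2.48% as deposited. The deposited TPM column sums to 1000097 and 975806 in the PANC-1 libraries and to 940619 and 943632 in those of PZT-2. It was therefore treated as a score on the TPM scale that the authors scaled. The lamin shares and the ratios between genes compare it within libraries. The order of abundance, its plot and the limma-trend alternatives also set values of different libraries side by side, although these sums differ. The columns of the authors' own comparison (effects, errors, p-values and q-values from sleuth) were not used.

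Counts were rounded and summed over transcripts into 15219 genes (27049 of 31077 transcripts named by the table, 3925 by their RefSeq entry, and 103, with 0.0467% of counts, unnamed and left out). Genes and transcripts with at least 5 counts in at least 2 libraries were tested with edgeR 4.0.16 (TMM, quasi-likelihood) in R 4.3.3, with Benjamini-Hochberg adjustment over all of them and a threshold of 0.05. Normalized counts are counts per effective library size, set to the size of an average library. Errors are SD over 2 libraries or SE of the fit. The SE holds both counting error, which depends on depth, and the spread between libraries. Alternatives were RLE factors, DESeq2 1.42.0, other filters, limma-trend (limma 3.58.1) on log2(TPM + 1) and log2(TPM + 0.1), the replicate block, each library left out, the deposited values with the factor, the most abundant transcript, length-scaled counts and, chosen after seeing the data, the version 4 dispersion estimate and a robust prior of edgeR. The most abundant transcript of a gene was that with the highest mean count, without correction for length. The scripts were tested on simulated data.

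The members and gene lists were chosen with earlier results of these data known. The text names the 10 members, the knockdown targets, the other envelope genes called with a mean of at least 100 normalized counts and the largest change (up to 10), and transcripts with at least 5% of a gene. Proliferation genes called and the markers COL1A1, CD68, PECAM1, CDH1, CDH2, VIM, FN1, EPCAM, KRT7, KRT8, KRT18 and KRT19 were named after their values were seen. Positions are from GENCODE 29 on GRCh38 and chromosome order from RefSeq on GRCh38.p14.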

Additional observations from a re-analysis of the deposited data

How the results depend on the processing

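The 10 genes gave 6 calls as reported, 3 to 8 with 1 library left out (3 without either PZT-2 library), 7 with the replicate block and 4 with the most abundant transcript of each gene alone. Over all genes the count was 4301 as reported, 3736 with the replicate block, 2136 with the most abundant transcript alone and 2089 to 4687 with 1 library left out. Of the other envelope genes, 13 were called as reported, 8 with the most abundant transcript alone and 11 to 17 with 1 library left out. No transcript of the 10 genes was called by edgeR as reported or with a library left out, where 0.149% of all transcripts were called as reported. The Wald test of DESeq2 called 11 (14.4% of all transcripts), the filter of at least 10 counts in all 4 libraries 2 of 20 (5.91%), limma-trend on log2(TPM + 1) 1 (0.753%) and the version 4 dispersion estimate 1 (1.17%). Over 14986 genes, deviations of libraries with the same replicate number did not go together (r = -0.0215). Whether they did so for the 10 genes was not tested. The block added TMPO (edgeR adjusted p = 0.0416), whose SE was 0.06 with the block against 0.08 without it. The SE of LMNA was 0.05 against 0.04. LMNB2 passed with DESeq2 (0.0290) and without PANC-1 replicate 1 (0.0284), and TMPO with at least 10 counts in all 4 libraries (0.0463) and without PANC-1 replicate 1 (0.00496). With the most abundant transcript alone, LBR, which has 1 transcript, kept its log2 fold change of -0.40 and SUN2 had -0.25 against -0.31, and neither was called (0.0656 and 0.0815). None of the 6 genes called as reported changed direction in any of the 16 alternatives run. With 1 library left, an arm is assumed to vary like the other.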
